A study of Saccharomyces cerevisiae with 36 samples.

Results

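The data described here are the 2 arrays, of 36 in the study, that compared RNA of the brr1 deletion strain of budding yeast with RNA of wild-type BY4741 cells. They were chosen by the strain named in the labels. BRR1 RNA itself has no probe among those with a gene symbol, so its loss cannot be checked on the array. Each array was hybridised with brr1 RNA in one colour channel and BY4741 RNA in the other, with brr1 in channel 2 on array 1 and in channel 1 on array 2. Per the labels, the RNA was total RNA and the strains were grown at 26 °C. The strains that brr1 is set against below are the deletions hsp104, msl1, snu66 and snu17, also grown at 26 °C and hybridised against BY4741 RNA, with 2 arrays each. Values of prp4-1a, a temperature-sensitive allele held at 37 °C for 2 h and set against its own wild type, are given for orientation. The labels name no further alleles and do not say whether a pair of arrays came from separate cultures. The p-values therefore measure only how far the arrays of a strain spread, pooled over all 36 arrays rather than the brr1 pair alone. That spread may be technical.

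Introns are removed from pre-mRNA by the spliceosome, which is assembled from small nuclear ribonucleoproteins (snRNPs), particles that each hold a small nuclear RNA with a ring of Sm or Lsm proteins and proteins of their own. Brr1 is known as a yeast protein that newly made small nuclear RNAs need to become stable snRNPs, and it is related to Gemin2 of the animal complex that loads Sm rings. Few yeast genes have introns, but they include most ribosomal protein genes, which give rise to much of the pre-mRNA that a growing cell splices. When splicing is slowed, pre-mRNA can accumulate, spliced mRNA can become scarcer, or both.

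The array read 230 introns of 223 genes with a probe in the intron, a probe across the exon junction that splicing forms, and an exon probe. It also carried 5 genes without introns. These probe roles were inferred from probe order and from earlier results of these data, so the direction in which intron and junction probes moved is not independent evidence for them. Every value is a log2 ratio of brr1 over wild type, so 1 stands for a doubling. Subtracting a gene's exon value from its intron value gives the intron index, and subtracting it from the junction value gives the junction index. A change was called in a limma fit over all 36 arrays at a Benjamini-Hochberg adjusted p under 0.05. Errors given with ± are standard errors of that fit, with n = 2 arrays.

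Array 1 gave a usable ratio at 2454 and array 2 at 2672 of the 2896 spots with a gene symbol. The number of arrays limits the precision, since the values carry no read depth. Over 683 probes measured on both arrays, the ratios of the arrays correlated across probes with a Pearson r of 0.93, although their dyes were exchanged. The median SD between the brr1 arrays was 0.204 for the intron index, 0.80 times that of the median strain. Neither array stood apart in direction. Array 2 gave the larger intron indices, with a median of 1.42 against 1.11 on array 1. The direction of the deposited ratio was checked on deleted genes that have probes. With channel 2 over channel 1, the exon probe of MUD1 read −2.56 ± 0.10 in mud1 and that of STO1 read −5.59 ± 0.31 in gcr3, another name of STO1 (SD, n = 2 arrays each). The junction probes read −3.91 and −5.46 there. The probe read as intron was at −1.80 for MUD1 in mud1 but at 1.06 for STO1 in gcr3, so 1 probe of a deleted gene went the other way.

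The brr1 strain accumulated intron signal across almost the whole set of introns. The intron index was higher in brr1 than in wild type for 200 of 212 introns measured on both arrays (94.3% of those tested) and lower for 0 (0%), with 0 lower also at an unadjusted p under 0.05. Its median was 1.25, or 2.37-fold, and its quartiles were 0.90 and 1.59. A rise above 1.5-fold was reached by 189 introns, above 2-fold by 150 and above 4-fold by 18. On both arrays the index was above 0 for 208 of the 212, which is 98.1%. The other kinds of probe moved far less. The median log2 ratio was 1.00 for intron probes, −0.31 for junction probes and −0.20 for exon probes.

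**Figure D1:**
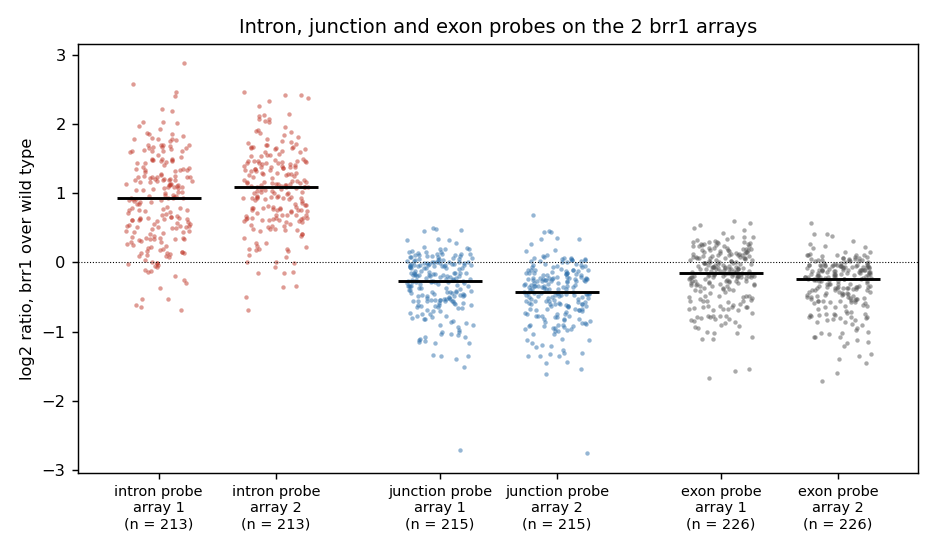
Log2 ratio of brr1 over wild type for each intron probe (red, n = 213), junction probe (blue, n = 215) and exon probe (grey, n = 226) on array 1 and array 2. Points are probes and black lines are medians. Intron probes lie around medians of 0.92 and 1.09, above 0, while junction and exon probes lie mostly below 0.

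The highest index belonged to RIM1, which encodes the single-stranded DNA-binding protein of mitochondria. Its index was 2.60 on array 1 and 2.74 on array 2, a mean of 2.67 ± 0.19, or 6.35-fold (limma adjusted p = 2.7e-11). The rise lay in the intron probe, at 2.88 and 2.42, whereas the exon probe read 0.28 and −0.31. RUB1, a ubiquitin-like modifier related to NEDD8, followed with 2.50 and 2.53, a mean of 2.51 ± 0.17. Its arrays differed by less than its standard error. EFM5, a methyltransferase that acts on an elongation factor, was read as having 2 introns. The index was 2.17 and 2.68 for intron 2 but 1.33 and 1.52 for intron 1, in probe order. The 2 introns of EFM5 thus did not overlap over the arrays.

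SEC27, a subunit of the COPI vesicle coat, had intron indices of 2.18 and 2.57. Unlike RIM1, it combined a raised intron probe (0.65 and 1.17) with a lowered exon probe (−1.54 and −1.40). The remaining genes among the 12 highest were UBC13 (2.37 ± 0.19), RPS21A (2.33 ± 0.24), VMA10 (2.26 ± 0.21), RPL43B (2.25 ± 0.20), SAR1 (2.22 ± 0.19), RPL16A (2.21 ± 0.21), ERV41 (2.21 ± 0.13) and PRE3 (2.17 ± 0.22). They encode a ubiquitin-conjugating enzyme, a small-subunit ribosomal protein, a subunit of the vacuolar proton pump, a large-subunit ribosomal protein, the GTPase of the COPII coat, another large-subunit protein, a protein of vesicles between endoplasmic reticulum and Golgi, and a proteasome subunit. Neighbours in this order differed by less than their standard errors, so the order within it is not resolved.

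**Figure D2:**
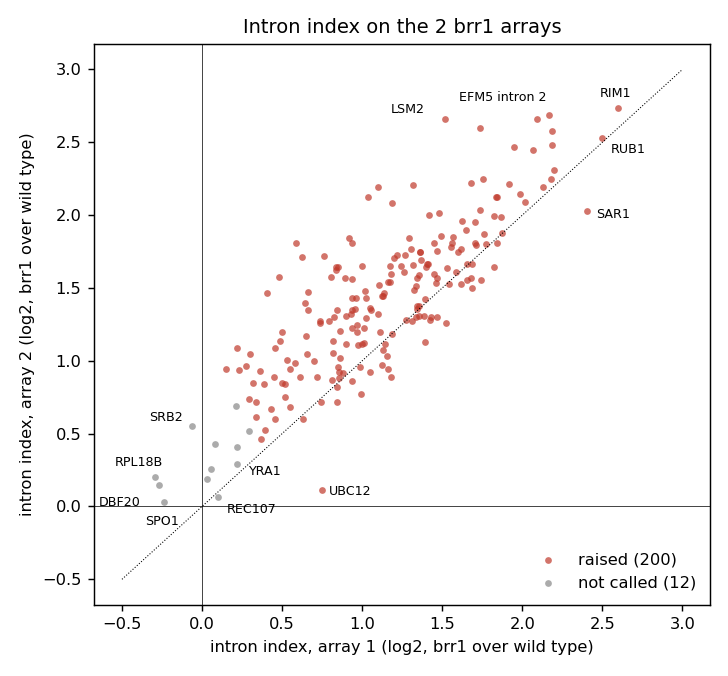
Intron index (log2, brr1 over wild type) of 212 introns on array 1 (x axis) and array 2 (y axis). Red points were raised at a limma adjusted p under 0.05 and grey points were not, and the dotted line marks equal values. All but 4 introns are above 0 on both arrays, and RIM1 and RUB1 lie at the top right.

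The 12 introns that were not called fell into different kinds when set beside prp4-1a. DBF20, a kinase of mitotic exit, had brr1 indices of −0.24 and 0.03, with a mean of −0.11 ± 0.12 and a value of −0.15 in prp4-1a. YBR219C, which has no assigned function, had 0.03 and 0.19 in brr1 and a mean of −0.16 in prp4-1a. SPO1, a meiotic gene, had −0.27 and 0.15 in brr1 and a mean of −0.17 in prp4-1a. These 3 introns were called in neither strain.

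RPL18B, RPL28, YRA1, RPL23A, RPL7B intron 1, RPL42B and RPL6B form the larger kind. RPL28 encodes a large-subunit ribosomal protein, and its index was 0.06 and 0.26 in brr1 (mean 0.16 ± 0.24, adjusted p = 0.52) but 3.18 in prp4-1a. RPL23A read 0.08 and 0.43 in brr1 and 4.27 in prp4-1a. The prp4-1a values of all 7 lay between 2.28 and 4.52 and were called there. The upper 95% bounds of the 7 brr1 indices lay between 0.38 for RPL18B and 0.94 for RPL42B, so smaller rises could not be told from 0, while all bounds were below the median of 1.25. The last 2, REC107 and SRB2, had no prp4-1a value on both arrays. REC107, a meiotic recombination gene whose splicing depends on the meiotic factor Mer1, read 0.10 and 0.07. SRB2, a Mediator subunit, read −0.06 and 0.55.

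Because the index subtracts the exon probe, the intron probe was also tested by itself. It was higher in brr1 for 186 of 213 introns (87.3%) and lower for 4 (1.88%). Of the 200 raised indices, 183 also had a raised intron probe. Among these 183, the exon probe was lower in 65, higher in 4 and not called in 114. The other 17 raised indices had a lowered exon probe and no raised intron probe. They include OM14, a protein of the outer mitochondrial membrane, with an intron probe at 0.11 and 0.41 and an exon probe at −0.93 and −1.71. CIN2, a tubulin folding factor, had an intron probe at −0.07 on each array and an exon probe at −0.95 and −0.98. In both genes, as deposited, the index was raised through the exon value. How a raised index divides between intron and exon probe depends on scaling. On centring on the intronless genes, the intron probe was higher for 206 of 213 introns and lower for 0.

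The lowered intron probes were those of RPS22B intron 1 (−0.53 and −0.14), RPS22B intron 2 (−0.61 and −0.69), REC107 (−0.68 and −0.51) and DBF20 (−0.53 and −0.35). All 4 belong to genes whose exon probe fell too. The sign of DBF20 and RPS22B intron 1 turned when arrays were centred on the intronless genes, and the call of RPS22B intron 1 was lost without either array. Over the 203 introns with all 3 probes measured on both arrays, the most frequent combination was a raised intron probe with no call at junction and exon, in 95. A raised intron probe with lowered junction and exon probes came next, in 53. These counts hold for the deposited scaling, since only 18 junction probes were called lower on centring on the intronless genes.

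Spliced junctions changed less than introns. The junction index was lower for 23 of 215 introns (10.7%) and higher for 5 (2.33%), with a median of −0.09. The junction probe by itself was lower for 96 of 215 (44.7%) and higher for 3 (1.4%) as deposited, and the arrays had medians of −0.26 and −0.43. This balance depends on scaling. On centring on exon and intronless probes, 47 were lower and 7 higher, and on centring on the intronless genes, 18 were lower and 46 higher. The count of 28 called junction indices depended on having both arrays: it was 4 without array 1 and 6 without array 2. Of the junctions named below, those of SRB2, MOB1, HNT2, TAD3 intron 2, YSC84, REC114 and TDA5 lost their call without either array, and those of RPS14B and RBS1 without array 1.

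The junction of RPS22B intron 1 was the lowest, with indices of −1.04 and −1.15 and a mean of −1.10 ± 0.14 (limma adjusted p = 1.2e-05). RPS22B encodes a small-subunit ribosomal protein, and its introns include a host of a small nucleolar RNA. Its junction probe read −2.71 and −2.76 and its exon probe −1.67 and −1.60, the lowest of all junction and exon probes tested. The other junction of the gene, of intron 2, had an index of 0.15 and 0.29 and was not called. SRB2 followed with −1.07 and −0.98, and this is an intron whose own index was not called. RPL7B intron 1 had a junction index of −0.95 and −0.91, again without a called intron index.

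MOB1, a regulator of mitotic exit, had a junction index of −0.79 and −0.55. HNT2, a dinucleoside hydrolase related to human FHIT, had −0.64 and −0.68. RPS14B, a small-subunit ribosomal protein gene, had −0.71 and −0.60, whereas its sister copy RPS14A had 0.02 and −0.03. The arrays agreed in sign for each of these lowered junctions. The 5 junction indices called higher were TAD3 intron 2 (0.67 ± 0.18), YSC84 (0.53 ± 0.14), REC114 (0.49 ± 0.10), RBS1 (0.35 ± 0.10) and TDA5 (0.35 ± 0.10). Of these, YSC84, RBS1 and TDA5 had lowered exon probes, and none of the 5 had a raised junction probe.

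Exon signal, a measure of total RNA of a gene, was lower in many genes and seldom higher. It was lower in brr1 for 92 of 226 genes (40.7%) and higher for 4 (1.77%), with a median of −0.20. Fewer calls were made from a single array, 70 without array 1 and 45 without array 2. These ratios depend on scaling. Relative to the deposited values, centring each array on its exon and intronless probes moved all genes by 0.209, and 53 were then lower and 47 higher. Centring on all probes moved them by 0.068 and gave 72 lower and 6 higher, and centring on the 5 intronless genes moved them by 0.496 and gave 19 lower and 120 higher. The balance of lower to higher exon values is therefore not fixed by these data, and the intron and junction indices do not depend on it.

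The lowest exon values stayed lower under each of these scalings. RPS22B read −1.67 and −1.60, or 0.322-fold. SEC27 read −1.54 and −1.40. YSC84, an actin-binding protein, read −1.57 and −1.32. OM14 followed with −0.93 and −1.71, COX5B with −1.11 and −1.46, and TDA5 with −1.03 and −1.35. The arrays of OM14 lay furthest apart among these 6. The 4 genes called higher were SMD2 (0.54 and 0.38), LSM7 (0.58 and 0.26), YNL050C (0.49 and 0.30) and RPS9A (0.19 and 0.57). RPS9A lost its call when either array was left out, and LSM7 without array 1.

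The gene groups below are read against all features, of which 94.3% of introns were raised and 40.7% of exon probes lowered. A group in which all or nearly all introns were raised is therefore near the share over all introns, and no difference between groups was tested. The 5 measured genes of the splicing machinery that carry introns had raised intron indices, as had most introns. LSM2 and LSM7, members of the Lsm ring, had 1.52 and 2.66, and 0.65 and 1.17. SMD2, a member of the Sm ring, had 0.94 and 1.35. MUD1, a protein of the U1 snRNP, had 0.79 and 1.28, and STO1, the larger protein of the complex that binds the mRNA cap in the nucleus, had 1.66 on each array. Their exon probes differed in direction. Those of SMD2 (0.46 ± 0.08) and LSM7 (0.42 ± 0.11) were higher, that of STO1 (−0.68 ± 0.19) was lower, and those of LSM2 (−0.25 ± 0.14) and MUD1 (0.04 ± 0.10) were not called. The junction probes of SMD2, at 0.48 and 0.33, and of LSM7, at 0.48 and 0.11, were called higher as well. They make up 2 of the 3 junction probes called higher as deposited, but 46 were called higher on centring on the intronless genes. The call of LSM7 was lost without either array and that of SMD2 without array 2.

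Of the genes for mRNA export and RNA helicases, DBP2, a DEAD-box helicase whose intron takes part in its own regulation, rose in intron index, with 0.52 and 0.75 (mean 0.63 ± 0.17). YRA1, the export adaptor whose inefficiently spliced intron limits its expression, read 0.22 and 0.29 and was not called. MTR2, a partner of the export receptor Mex67, has probes of uncertain role only. RPL30, whose protein binds its own pre-mRNA to block splicing, had an intron index of 0.94 and 0.86, with a mean of 0.90 ± 0.20, and a junction index of −0.24 ± 0.08.

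Ribosomal protein genes made up 98 of the tested introns. Their index was raised for 92 and lowered for 0, near the share over all introns, with a median of 1.20, beside 1.25 over all introns. The remaining introns of other genes gave 108 raised of 114 and a median of 1.32. The difference of these medians, −0.12, was 0.030 without array 2. In the large subunit 49 of 55 introns were raised, with a median of 1.15, and in the small subunit 42 of 42, with a median of 1.35. Both counts are close to 94.3%, and the difference between the subunits was not tested. Exon probes of ribosomal protein genes were lower in 15 of 97, with 1 higher and a median of −0.06. Exon probes of other genes with introns were lower in 74 of 124 and higher in 3, with a median of −0.35. The median of the ribosomal protein genes turned positive under every centring tried, while that of the other genes did so on centring on the intronless genes, at 0.15.

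Most yeast ribosomal proteins are made from a pair of near-identical genes. In 41 such pairs both copies had a tested intron, and 33 kept the order of their copies on both arrays. The copies differed in index by a median of 0.40. The difference between copies was not put to a test, and signal shared through near-identical sequence could draw the copies together. RPL16A and RPL16B were furthest apart. RPL16A read 2.18 and 2.25, and RPL16B read 1.01 and 1.12. RPL43B read 2.20 and 2.31, and RPL43A read 0.93 and 1.43. RPL23B read 0.90 and 1.31, and RPL23A, as above, was not called. In these 3 pairs every value of one copy lay above every value of the other.

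The copies of RPS14 differed in all 3 probes. RPS14A had an intron probe at 1.07 and 0.64 and an exon probe at −0.09 and −0.31. RPS14B had an intron probe at −0.19 and −0.15 and an exon probe at −0.65 and −0.74. The index was 1.05 ± 0.14 for RPS14A and 0.53 ± 0.14 for RPS14B. Ribosomal protein S14 is known to bind RPS14B pre-mRNA and to repress it. The index difference of 12 pairs was above 0.5. These pairs were picked by their mean over the same arrays, which largely fixes the order of their copies.

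**Figure D3:**
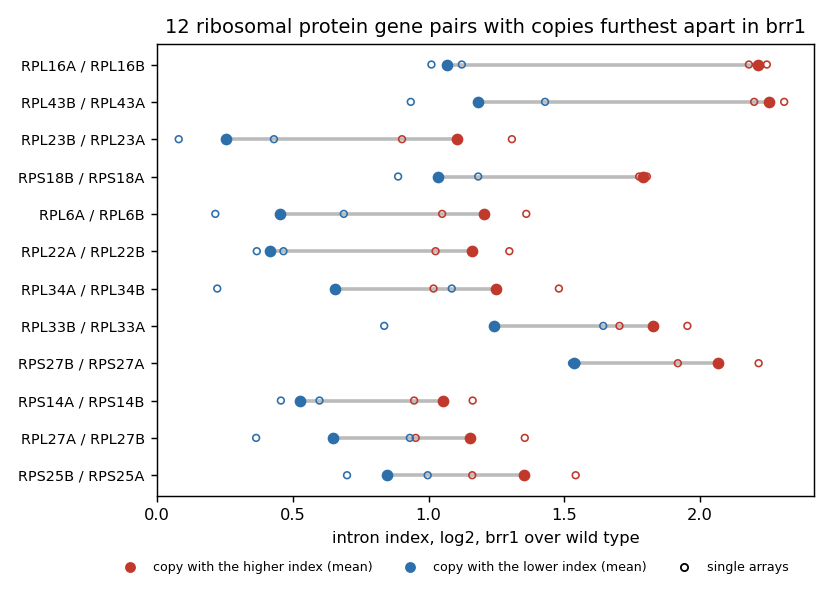
Intron index (log2, brr1 over wild type) of the 12 ribosomal protein gene pairs whose copies differ by more than 0.5. Filled points are means of 2 arrays, open points are single arrays, red marks the copy with the higher index and blue the other. The red means lie 0.50 to 1.15 to the right of the blue means.

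The 8 genes that host small nucleolar RNAs had 7 tested introns, not all of which hold such an RNA. Of these 7, 6 were raised, with a median of 0.67, beside 1.25 over all introns. They included RPS22B intron 1 (1.30 ± 0.21) and intron 2 (0.99 ± 0.21), IMD4 (0.75 ± 0.15), EFB1 (0.67 ± 0.23), RPL7A intron 1 (0.55 ± 0.22) and RPL7B intron 2 (0.53 ± 0.19). EFB1, an elongation factor subunit, was uneven between arrays, at 0.30 and 1.05. RPL7B intron 1 read 0.22 and 0.41 and was not called. Only RPS22B and TEF4 had lowered exon probes among the 8 host genes.

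Some genes were read as having 2 introns, each set against the same exon probe. That number was inferred from the probes and was not checked against gene structures. Of 13 such introns tested, 12 were raised, near the 94.3% over all introns. DYN2, the dynein light chain, had 1.24 and 1.65 for intron 1 and 1.06 and 1.35 for intron 2. SRC1, an inner nuclear membrane protein, had 0.85 and 0.92 for intron 1 and 1.00 and 1.11 for intron 2. The SRC1 values also lay close together in snu66, at 2.06 and 2.27, and in snu17, at 1.37 and 1.40. Whether they stand for separate introns was not tested. TAD3, a subunit of a tRNA adenosine deaminase, had 1.42 and 1.28 for intron 1 and 1.43 and 1.30 for intron 2. RPS22B had 1.14 and 1.47 for intron 1 and 1.05 and 0.92 for intron 2. RPL7B had 0.22 and 0.41 for intron 1 and 0.34 and 0.72 for intron 2. The introns of DYN2, TAD3 and RPL7B overlapped over the arrays, while those of SRC1 and RPS22B, like those of EFM5, did not. For RPL7A, intron 1 read 0.43 and 0.67, and intron 2 gave a value of −0.24 on array 2 only.

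In genes of the secretory pathway and the vacuole, 17 of 17 introns were raised, near the 94.3% over all introns, with a median of 1.62, beside 1.25 over all introns. Besides SEC27, VMA10, SAR1 and ERV41, they included SNC1 (1.32 and 2.21), a SNARE of secretory vesicles, NYV1 (2.02 and 2.09), a vacuolar SNARE, and SEC17 (1.84 and 2.12), which with its partner ATPase recycles SNAREs. Their exon probes were lower in 12 of 18, beside 40.7% of all genes, with a median of −0.43, which became 0.06 when arrays were centred on the intronless genes. BIG1, needed for cell wall glucan, had the second lowest exon value of the group after SEC27, at −1.07 and −1.15. BOS1, another SNARE, had an index of 0.15 and 0.94, and the arrays lay far apart.

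Ubiquitin-like modifiers, their enzymes and the proteasome gave 9 of 9 raised introns, near the 94.3% over all introns, with a median of 1.61. RUB1, UBC13 and PRE3 are described above. UBC5 (1.10 and 2.19) and UBC8 (1.47 and 1.76) also rose. UBC12, which conjugates the RUB1 product, read 0.75 and 0.12, and its call rested on arrays that lay far apart. Exon probes were lower in 5 of 9, beside 40.7% of all genes, with UBC9, the SUMO-conjugating enzyme, at −0.68 and −1.16, while the group's median of −0.32 became 0.18 on centring on the intronless genes.

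In the actin cytoskeleton group, 5 of 5 introns were raised, beside 94.3% over all introns. Exon probes were lower in 6 of 7, beside 40.7% of all genes, with a median exon value of −0.70 that remained below 0 under each scaling. PFY1, or profilin, had an intron index of 1.83 and 1.99 and an exon probe at −0.69 and −0.70. COF1, or cofilin, had 1.84 and 1.81 with an exon probe at −0.43 and −0.37. ACT1 itself was the gene with no exon call, at −0.12 and −0.22, and its intron index, 1.25, came from array 2 only. In the tubulin and spindle group, 7 of 7 introns were raised and exon probes were lower in 5 of 7, beside the same shares over all features, with a median of −0.45 that became 0.05 on centring on the intronless genes. TUB3, an alpha-tubulin gene, had an index of 0.29 and 0.74 with no raised intron probe.

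The 4 respiratory chain genes had a raised intron index, as had 94.3% of all introns, and a lowered exon probe, as had 40.7% of all genes. COX4 and COX5B encode subunits of cytochrome c oxidase, and QCR9 and QCR10 subunits of the cytochrome bc1 complex. COX4 had an intron index of 1.45 and 1.81 and an exon probe at −0.57 and −0.87. COX5B had 0.82 and 1.30 with an exon probe at −1.11 and −1.46, and its intron probe, at −0.29 and −0.16, was not raised. QCR9 had an index of 1.57 and 1.85 and an exon probe at −0.44 and −0.76. QCR10 had an index of 1.22 and 1.73 and an exon probe at −0.48 and −0.80. The median exon value of the 4 genes was −0.68, beside −0.20 over all genes, and it was −0.18 on centring on the intronless genes.

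Of the other mitochondrial genes, RIM1, MRPL44 (1.82 ± 0.16) and YML6 (1.67 ± 0.15), the last 2 being proteins of the mitochondrial ribosome, had raised introns. Exon probes were lower for YML6, MRPL44 and ERV1, an oxidase of the intermembrane space at −0.77 and −1.01, but not for RIM1.

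RNA polymerase II and chromatin genes had 7 of 8 introns raised, near the 94.3% over all introns, with a median of 1.04. RPO26, a subunit shared by the nuclear RNA polymerases, had 2.13 and 2.19, far above the others, of which ARP9, a chromatin remodeller subunit, was next at 1.10 and 1.32. Exon probes were lower in 5 of 8, beside 40.7% of all genes, with a median of −0.31 that became 0.19 on centring on the intronless genes. Among the signalling genes, 5 of 5 introns were raised, near the same share. CNB1, the regulatory subunit of calcineurin, had 1.68 and 2.22, and GLC7, the catalytic subunit of protein phosphatase 1, had 0.39 and 0.53. The remaining 3, the kinases KIN28, MRK1 and PHO85, lay close together between 1.00 and 1.04. Exon probes were lower in 4 of the 5, beside 40.7% of all genes, with GLC7 the exception at 0.12 and 0.07. The median exon value of the signalling genes, −0.56, became −0.06 on centring on the intronless genes.

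Meiotic genes are little transcribed in growing cells, and only 2 of their introns could be tested. Neither REC107 nor SPO1 was raised. REC107 also had a lowered exon probe (−0.78 and −0.57) and junction probe (−0.60 and −0.45), so its 3 probes were lowered by similar amounts.

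The 5 genes without introns were not at the wild-type level throughout. HIS4, of histidine synthesis, read −0.999 and −1.08, and FAS1, the beta subunit of fatty acid synthase, read −0.81 and −0.73. ADH1, the main alcohol dehydrogenase of fermenting cells, read −0.31 and −0.21 and passed the threshold narrowly (limma adjusted p = 0.049). GAL1, the galactokinase, read −0.35 and −0.17, and GAL10, the galactose epimerase, read −0.16 and −0.06. Neither galactose gene was called. HIS4, which needs no splicing, was at 0.486-fold as deposited. Its mean of −1.04 became −0.97, −0.83 and −0.55 on centring on all probes, on exon and intronless probes and on intronless genes, and it was called lower under each.

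**Figure D4:**
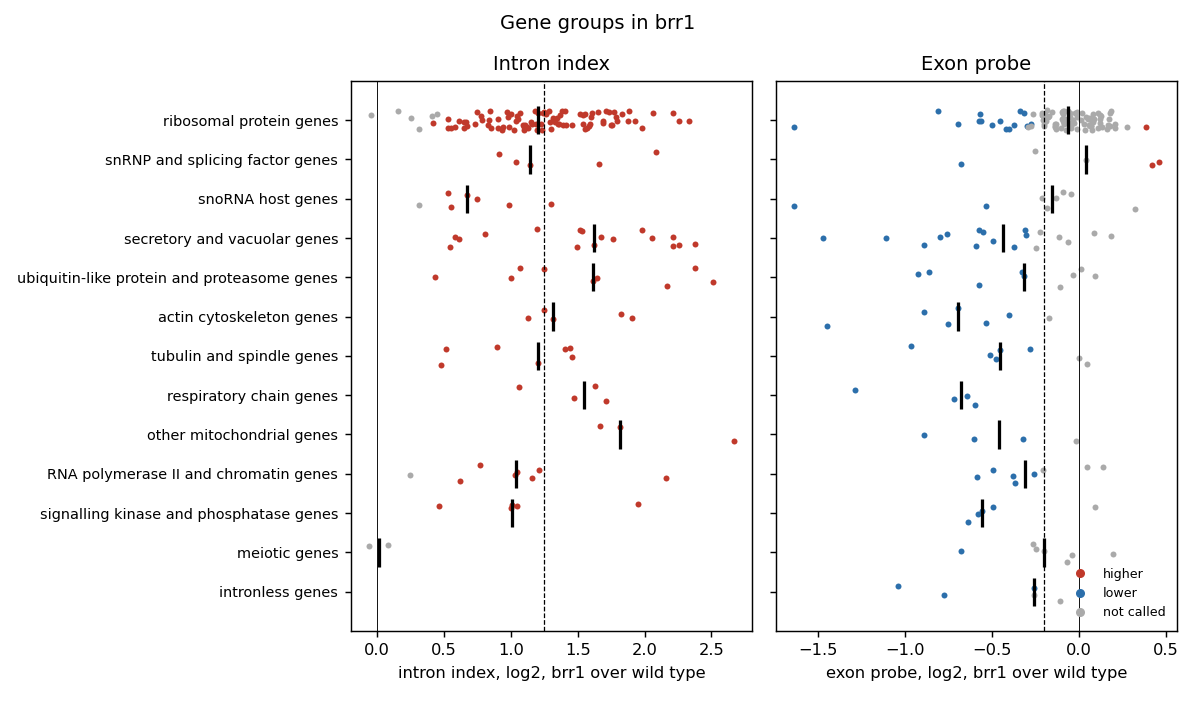
Intron index (left) and exon probe (right) of each gene group, log2 of brr1 over wild type. Points are means of 2 arrays, red marks values called higher, blue values called lower and grey values not called. Short black lines are group medians and dashed lines the medians over all introns (1.25) and all genes (−0.20). The secretory and ubiquitin-like groups have median indices of 1.62 and 1.61, while the 2 meiotic introns lie near 0.

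The hsp104 strain lacks a chaperone that dissolves protein aggregates and is no part of the spliceosome, although it is known to help splicing recover after heat shock. In the fitted difference, the intron index was higher in brr1 than in hsp104 for 180 of 201 introns (89.6%) and lower for 0 (0%), with 0 lower also at an unadjusted p under 0.05. Over these introns the median was 1.24 in brr1 and −0.00 in hsp104. RIM1 had 2.60 and 2.74 in brr1 against −0.16 and 0.23 in hsp104. The junction index was lower for 4 of 210 (1.9%) and higher for 0 (0%; 2 at an unadjusted p under 0.05). The 4 were RPS22B intron 1, RPL7B intron 1, YNL050C, which has no assigned function, and YML6, and the call of YNL050C was lost without brr1 array 1 and that of YML6 without brr1 array 2.

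Exon values were lower in brr1 than in hsp104 for 69 of 224 genes (30.8%) and higher for 2 (0.893%), SMD2 and YNL050C. On centring on exon and intronless probes, the split was 30 lower and 10 higher. Without brr1 array 2 only 33 exon values were called in all. PMI40, which makes mannose 6-phosphate for glycosylation, was among the 4 lowest, with −0.88 and −1.21 in brr1 against 0.20 and 0.30 in hsp104. The other 3 were RPS22B, SEC27 and OM14. Both comparisons use BY4741 RNA, so what they share is not independent.

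Brr1 was then set against 3 deletions of spliceosome components that also raise most introns: msl1, which lacks a protein of the U2 snRNP, snu66, which lacks a protein of the tri-snRNP, and snu17, which lacks a U2-associated protein of the complex that retains pre-mRNA in the nucleus. These strains share BY4741 as wild type, so only the fitted differences are tested. Over the 189 introns measured in both, the median index was 1.26 in brr1 and 1.21 in msl1. No intron differed after adjustment (0%; at an unadjusted p under 0.05, 13 were higher and 4 lower). The 95% interval of a difference, before adjustment, had a median width of ±0.57. Fitted differences ran from −0.81 to 0.99 with none called, so differences larger than ±0.57 could also go uncalled. The strains are not shown to be alike.

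Against snu66, 5 of 200 introns (2.5%) were lower in brr1 and 0 (0%) higher, with 11 higher at an unadjusted p under 0.05. The medians were 1.27 in brr1 and 1.25 in snu66. YIP3, a protein of transport between endoplasmic reticulum and Golgi, read 1.69 and 1.67 in brr1 against 2.86 and 3.18 in snu66. RPL30 read 0.94 and 0.86 in brr1 against 2.25 and 2.22 in snu66. Both SRC1 indices, which may not stand for separate introns, were lower in brr1. Intron 2 was at 1.00 and 1.11 against 2.44 and 2.11 in snu66, and intron 1 at 0.85 and 0.92 against 2.09 and 2.03 in snu66. LSM7 read 0.65 and 1.17 in brr1 against 1.62 and 2.03 in snu66. The strains do not overlap at any of these 5 introns. All 5 calls were lost without brr1 array 2, and that of LSM7 also without brr1 array 1.

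Against snu17, 3 of 204 introns (1.47%) were lower in brr1 and 1 (0.49%) higher, with medians of 1.25 in brr1 and 1.35 in snu17. TAN1, which is needed for acetylation of tRNA, read 1.30 and 1.77 in brr1 against 2.34 and 3.07 in snu17. MOB1 read 0.34 and 0.61 in brr1 against 1.28 and 1.51 in snu17. GLC7 read 0.39 and 0.53 in brr1 against 1.32 and 1.36 in snu17. ERV41 was the intron that was higher, at 1.95 and 2.47 in brr1 against 1.11 and 1.75 in snu17. At each of these 4 introns the arrays of the strains do not overlap. The call of TAN1 was left when either brr1 array was removed, the other 3 were lost, and with no dye term none of the 4 was called.

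**Figure D5:**
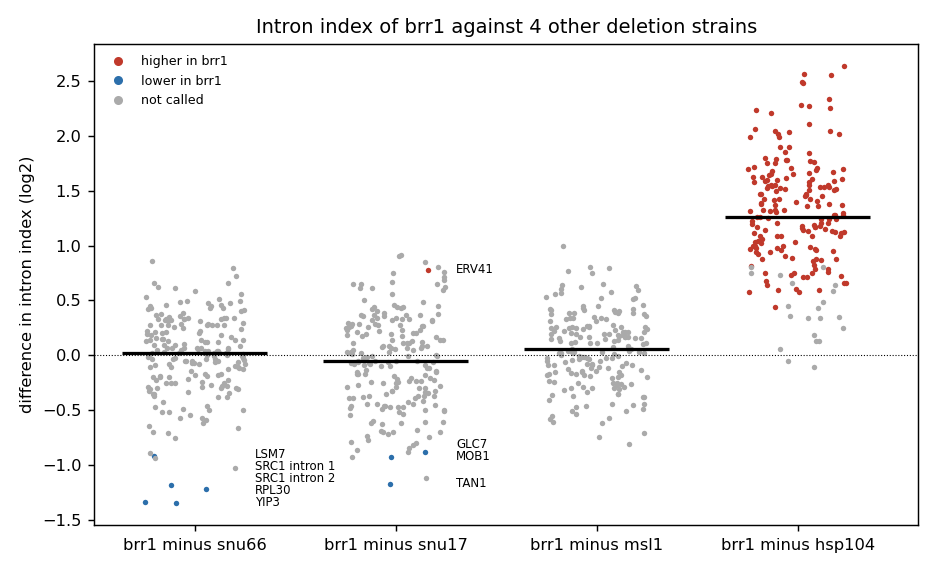
Fitted difference in intron index (log2) between brr1 and each of snu66 (n = 200 introns), snu17 (n = 204), msl1 (n = 189) and hsp104 (n = 201). Points are introns, black lines are medians, red marks introns called higher in brr1 and blue those called lower. The medians lie near 0 for the spliceosome deletions and at 1.26 for hsp104.

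The indices of prp4-1a, at its raised temperature and against another wild type, were larger. Over 207 introns measured in both, the median was 1.25 in brr1 and 3.42 in prp4-1a. RIM1 had 2.67 in brr1 and 3.91 in prp4-1a, and RPL43B had 2.25 in brr1 and 5.16 in prp4-1a. RPS22B intron 1 had 1.30 in brr1 and 1.79 in prp4-1a. Temperature and allele cannot be told apart in this difference, and it was not tested. Among the 12 highest introns of brr1, RIM1, RUB1, RPS21A, ERV41 and PRE3 had a lower index in each other deletion strain with a value, which is a description of introns picked for being high in brr1.

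Of the 230 introns on the array, 18 could not be tested in brr1. For 9 of them neither array gave an index, and for 9 only 1 array did. Of the 9 single values, 8 were above 0, among them TUB1, an alpha-tubulin gene, at 1.42, ERV1 at 1.64 and YSC84 at 1.31. The introns without any value included those of the meiotic genes PCH2, MEI4, DMC1, HOP2, HFM1 and REC114. Shorter genes had somewhat higher indices, with a median of 1.37 in the shorter and 1.17 in the longer group of 199 genes with a single intron (Spearman correlation across genes −0.22, as a description).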

How the data were processed

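The authors deposited 1 log2 ratio of the 2 channels per spot and array in the series matrix. Background treatment and scaling before deposit were not given in the sources used here. To settle the base, differences between recurring values were compared with logarithms of quotients of whole numbers, and 140 of 1562 matched at base 2, against 3 to 33 at the other bases tried (tolerance 3e-08). Channel 2 over channel 1 is the likely direction. The deposited values were not rescaled.

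Each array held 3456 spots, 4 for each of 864 probes. Exact zeros (134 and 36 at named spots of brr1 arrays 1 and 2) and blanks (308 and 188) were treated as missing, and usable spots were averaged. The deposited annotation gave 1 symbol to 2896 spots, none to 560 and several to 0, and all 230 symbols were found in RefSeq's gene table. Genes with 3 neighbouring probes were read as junction, intron and exon, and those with 5 as a junction and an intron probe per intron followed by the exon probe. 21 probes of uncertain role were left out.

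All 36 arrays entered 1 limma fit (limma 3.58.1, R 4.3.3; Python 3.11.15 for tables) with a coefficient per strain and a dye term. Features measured on both brr1 arrays were tested, and on both arrays of the other strain in a contrast, with Benjamini-Hochberg adjustment within a measure at 0.05. Each array lies on its own slide, so no slide block was possible.

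The strain, gene lists, tests and named genes were chosen with earlier results of these data known. Named were the 12 highest and 8 lowest intron indices, the 6 lowest and up to 6 highest called junctions, the 6 highest and 6 lowest called exons, up to 4 called at each end of a contrast, up to 6 called members of each list, all members of the splicing, export, 2-intron, respiratory and intronless lists, and fixed genes (ACT1, RPL30, RPL28, YRA1, DBP2, TUB3, REC107, RPS14A, RPS14B). Other genes were named after their values were seen: SNC1, BOS1, UBC12, CIN2, ARP9, RPL16B, RPL43A, RPL23A, RPL23B, RPL42B, RPL6B, and introns without a value on both arrays. Alternatives were other scalings, no dye term, subsets of strains or features, another spread, a threshold of 0.01, spots joined by the median, at least 2 spots, zeros kept, array weights and each brr1 array left out. Centring on intronless genes and unadjusted p in contrasts were added after seeing the data.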

Additional observations from a re-analysis of the deposited data

Results flagged for a closer look

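The difference from another strain was large enough to be called for these introns, by the fitted contrast itself. Against snu66, the intron index of brr1 differed by −1.34 for YIP3, −1.34 for RPL30, −1.22 for SRC1 intron 2, −1.17 for SRC1 intron 1 and −0.92 for LSM7, 5 introns in all. Against snu17 it differed by −1.17 for TAN1, −0.92 for MOB1, −0.88 for GLC7 and 0.78 for ERV41, 4 introns in all. Against hsp104, 180 intron indices, 4 junction indices and 71 exon values differed.

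Signal was also present at probes that entered no comparison because their role or gene is uncertain. Probes labelled HMRA1, after a copy of a mating-type gene with 2 introns, form a run of 7. Which copy of the gene gave their signal was not tested. In brr1, probes 2, 4 and 6 of the run had means of 2.20, 2.04 and 1.93. Their arrays read 2.21 and 2.19, 2.18 and 1.90, and 2.01 and 1.84. In hsp104 these 3 probes lay between −0.14 and 0.23 on both arrays. The means of the other HMRA1 probes were −0.41 to 0.07 in brr1. The third probe of MTR2 read 0.54 on each brr1 array (mean 0.54) against −0.20 and −0.01 in hsp104. The second of the additional ACT1 probes read 0.67 and 1.01 in brr1 (mean 0.84) against −0.03 and 0.22 in hsp104. Probes with no gene symbol were flagged at 0.5 or more in size on both brr1 arrays and 2 times the largest hsp104 size. By this rule 10 were flagged, some of them raised and others lowered in brr1.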

How the results depend on the processing

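The limits that matter most here are the 2 arrays of brr1, whose RNA sources the labels do not separate, the inferred probe roles and the unknown scaling before deposit. The number of raised introns (200) was between 193 and 203 under the other settings of fit, threshold and spots, apart from 131 when only features measured on all 36 arrays were tested, which leaves fewer introns. It was 176 to 192 with a brr1 array left out, where 1 of the calls without array 1 was a lower index. A single remaining array was assumed to vary like the other strains.

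Junction indices called were fewer or more than 28 under several settings: 18 with no dye term, 51 without prp4-1a, 52 with strains grown at 26 °C alone, 43 with the 2 brr1 arrays alone, 12 at an adjusted p under 0.01, 17 with zeros kept, 73 with arrays weighted by strain, and 4 to 6 without a brr1 array. Junction probes called (99) were 54 on centring on exon and intronless probes, 64 on centring on intronless genes and 47 to 75 without a brr1 array. Exon values called (96) were 45 to 70 without a brr1 array.

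Against hsp104, junction calls (4) were 2 with no dye term, 14 without prp4-1a and 57 with weights, and 3 to 3 without a brr1 array. Exon calls (71) were 40 on centring on exon and intronless probes, 46 with no dye term and 33 to 62 without a brr1 array. Against msl1, calls (0) were 3 without prp4-1a, 5 with weights and 17 unadjusted. Against snu66, calls (5) were 2 with no dye term, 18 without prp4-1a, 8 with weights, 29 unadjusted and 0 to 4 without a brr1 array. Against snu17, calls (4) were 0 with no dye term, 36 without prp4-1a, 37 with weights, 35 unadjusted and 1 to 1 without a brr1 array. The cause of these shifts was not tested.

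The median index of ribosomal protein introns minus that of others was −0.12, and −0.24 to 0.030 without a brr1 array, so array 1 alone turned its sign. Centring on intronless genes adds 0.496 to every probe, so 8 of the 10 intron probes below 0 came to lie above it, at 0.055 for DBF20, 0.16 for RPS22B intron 1, 0.17 for SPO1, 0.26 for YBR219C, 0.27 for COX5B, 0.33 for RPS14B, 0.40 for RPL18B and 0.43 for CIN2. Over single genes named, 2280 values kept their side of the threshold, 84 lost the call and 207 gained one. A further 5 changed sign while called in the main fit or in the alternative. Sign changes of values called in neither are counted among the 2280. No paired analysis was possible because each value is already a ratio of brr1 to wild type on the same array, and the array numbers follow accession order.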
